A study of Mus musculus with 15 samples.

Results

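The genes described here are the interferon-stimulated and antigen presentation genes of the mouse liver, a set of 41 named genes found by their symbols among 18510 genes in the deposited expression table. They comprise 6 transcription factors, 3 sensors of viral RNA, 17 antiviral effectors, 5 interferon-inducible GTPases, 6 genes of MHC class I and peptide loading, and 4 genes of MHC class II. A row was found for 39 of the 41, and Mx1 and Mx2 were not analysed here. Of these, 38 reached the expression floor for testing, 1 FPKM in 5 or more of the 15 libraries (FPKM scales fragments to transcript length and to the library's total). Ciita was below it.

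RNA was sequenced from the livers of 15 mice, all of wild-type genotype, with 5 in each of 3 groups. Ctrl mice ate a control diet, Alc mice a diet with alcohol, and Alc UA mice that same alcohol diet plus UA, which the labels leave unexpanded. The sources used here do not give strain, sex, age, alcohol dose or length of feeding. A mouse is named below by its group and replicate number, and values listed for a group run from mouse 1 to mouse 5.

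Interferons are secreted proteins that warn cells of infection. Type I interferons bind a receptor made of Ifnar1 and Ifnar2, whose kinases phosphorylate STAT proteins, Stat2 among them. Stat2 and Irf9 belong to the complex ISGF3, which binds a DNA element in the promoters of interferon-stimulated genes. Interferon gamma has a receptor of its own and induces the immunity-related GTPases, the transcription factor Irf1 and the antigen presentation genes. MHC class I, built from a heavy chain and B2m, is carried by nearly every cell, whereas MHC class II is mainly a product of macrophages, dendritic cells and B cells, which in the liver are few among the hepatocytes.

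The libraries had the character of liver, with albumin (Alb) between 14848 and 42149 FPKM in every mouse. FPKM values summed to between 551153 and 668832 per library, and their read depth is unknown, so the counting error behind a value cannot be stated. Ctrl 1 stood apart among the members: it was the highest of the 5 Ctrl mice for 35 of the 39 members with a row. Alc 4 was the highest Alc mouse for 29 and Alc UA 1 the highest Alc UA mouse for 22, whereas Alc UA 5 was the lowest of its group for 27. Results that rest on one of these mice are given with and without it. Several members belong to families of similar genes (the Oas, Ifit, Gbp and H2 genes), and the sources used here do not say how the authors' counting shared reads between copies.

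**Figure D1:**
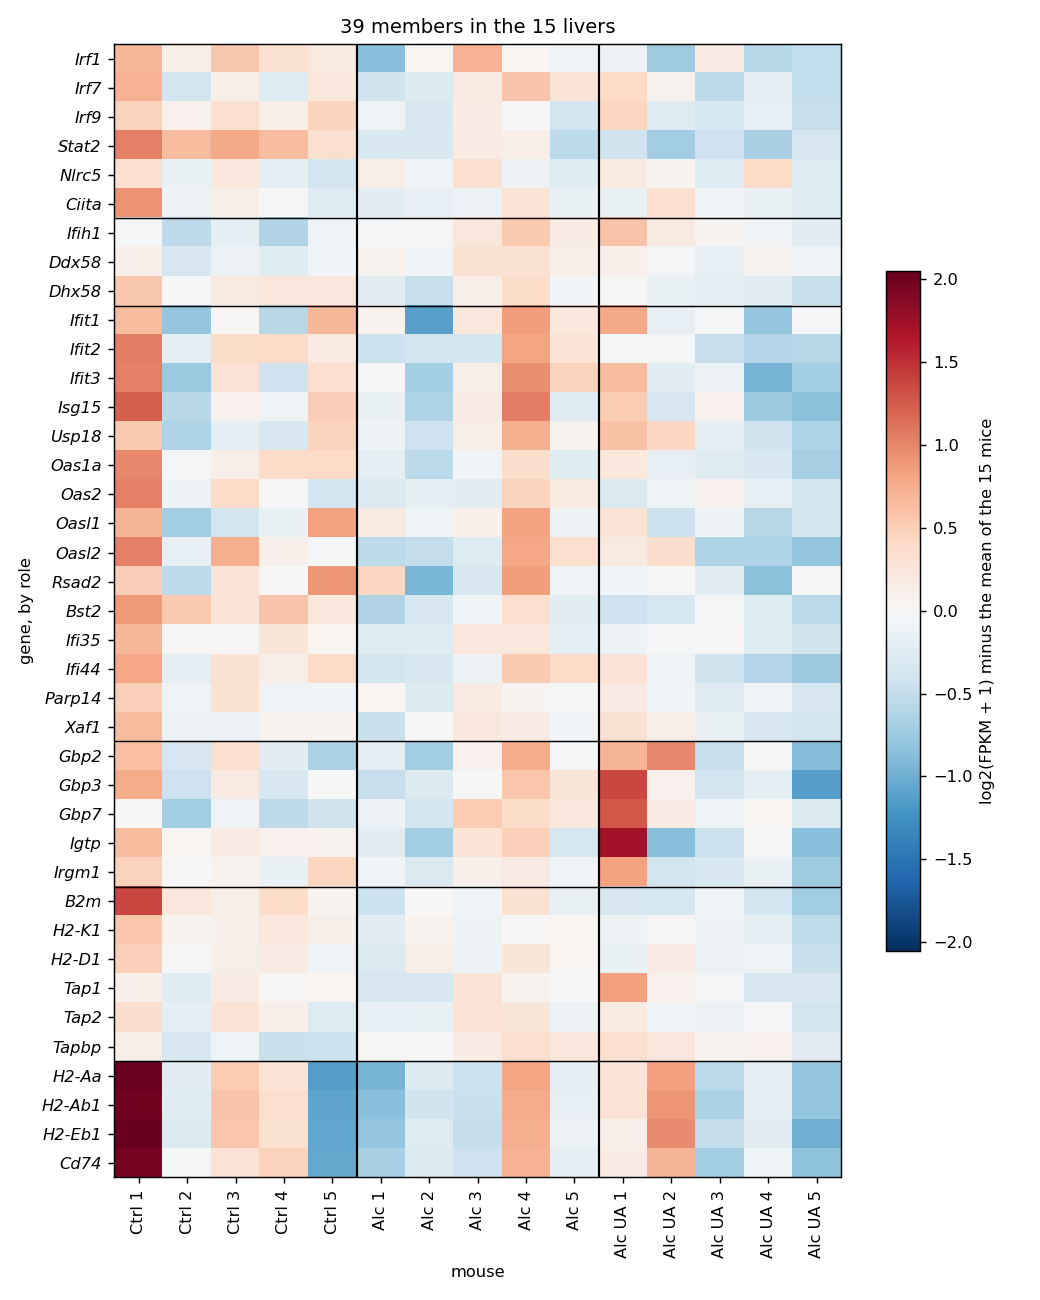
Level of each of the 39 members with a row (rows, grouped by role) in each of the 15 livers (columns), as log2(FPKM + 1) minus the gene's mean over the 15 mice. Red is above that mean and blue below; Ctrl 1 was the highest Ctrl mouse for 35 of the 39 members, and the MHC class II genes differ between mice of one group more than most other members.

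The promoters of 4 members are printed because they show the interferon-response element next to genes that passed the threshold. They were taken from RefSeq (GRCm38.p6), and each run is the 250 bases before the transcription start, 5′ to 3′ on the strand of the gene, with the matched element in capitals. The element searched was the core of the interferon-stimulated response element (ISRE), GAAANNGAAA, on both strands.
Stat2: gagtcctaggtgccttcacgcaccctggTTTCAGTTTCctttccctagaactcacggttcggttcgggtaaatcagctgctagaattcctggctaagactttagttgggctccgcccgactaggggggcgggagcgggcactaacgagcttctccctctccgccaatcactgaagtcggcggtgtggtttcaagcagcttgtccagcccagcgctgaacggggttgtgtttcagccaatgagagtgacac
Bst2: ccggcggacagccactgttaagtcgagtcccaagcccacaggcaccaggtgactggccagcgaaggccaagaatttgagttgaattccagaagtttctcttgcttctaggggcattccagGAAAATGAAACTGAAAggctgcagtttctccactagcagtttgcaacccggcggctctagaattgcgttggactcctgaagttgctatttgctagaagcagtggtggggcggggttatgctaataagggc
B2m: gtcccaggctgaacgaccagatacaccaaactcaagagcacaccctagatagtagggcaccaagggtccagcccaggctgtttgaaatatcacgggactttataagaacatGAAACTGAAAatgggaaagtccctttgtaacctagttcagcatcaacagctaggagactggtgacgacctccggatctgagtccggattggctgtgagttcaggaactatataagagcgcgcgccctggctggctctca
Oas1a: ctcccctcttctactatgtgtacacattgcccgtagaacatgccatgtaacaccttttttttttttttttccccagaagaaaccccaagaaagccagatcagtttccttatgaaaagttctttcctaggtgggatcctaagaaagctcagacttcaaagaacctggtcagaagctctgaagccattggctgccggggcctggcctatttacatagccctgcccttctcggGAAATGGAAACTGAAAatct
These runs lie at chr10:128270248-128270497 on the plus strand for Stat2, chr8:71537473-71537722 on the minus strand for Bst2, chr2:122147437-122147686 on the plus strand for B2m and chr5:120907526-120907775 on the minus strand for Oas1a.

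Each of the 4 held the same 10 letters, GAAACTGAAA. They lay 222 to 213 bases before the start of Stat2, where they read as the reverse complement TTTCAGTTTC, 124 to 115 before that of Bst2, 139 to 130 before that of B2m and 14 to 5 before that of Oas1a. In Bst2 and Oas1a the capitals also cover an overlapping match, GAAAATGAAA and GAAATGGAAA. This 10-letter form occurred in 0.231% of 32851 RefSeq windows of 300 bases (250 before to 50 after the start), and among the members also in Gbp3, Gbp7, Ifit1, Ifit3 and Igtp. The general core GAAANNGAAA occurred in 3.44% of the windows and 3.99% of the 27025 genes.

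A promoter window was found for 30 of the 41 members, and 15 of the 30 held the ISRE core. All 5 GTPases held it, as did 2 of 2 matched sensors, 6 of 12 effectors, 1 of 4 transcription factors (Stat2), 1 of 5 class I genes (B2m) and 0 of 2 class II genes. It was found in 6 of the 11 matched members that passed the threshold in at least 1 comparison and in 9 of the 19 tested members that did not, and this difference was not tested. The core of the GAS element of the interferon gamma pathway, TTCNNNGAA, occurred in 7 of the 30 members and in 9.55% of all genes. A match is a description of the letters and not evidence of a bound site.

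The alcohol diet was first set against the control diet. Relative to Ctrl, the Alc livers had less RNA of Stat2 and Irf9, both subunits of ISGF3, and of the virion-tethering protein Bst2, and more of the RNA sensors Ifih1 and Ddx58 and of the peptide-loading chaperone Tapbp. Thus 3 of the 38 tested members were higher and 3 lower at an adjusted p under 0.05 (limma on log2(FPKM + 1), Benjamini-Hochberg over all 10959 tested genes). Of 25 alternative settings, the calls of Stat2 and Bst2 held under 25, Tapbp under 20, Ifih1 under 18, Ddx58 under 16 and Irf9 under 9. In the same comparison 10.6% of all tested genes were higher and 22.8% lower. The members' share, 7.89% in each direction, was near the first and below the second. The residual standard deviation of log2(FPKM + 1) had a median of 0.39 over the members and 0.20 over all tested genes. At an equal difference, a member was therefore less readily called than most genes. The median difference was -0.20 on the log2(FPKM + 1) scale over the members and -0.12 over all tested genes. Without Ctrl 1 these medians were -0.061 and -0.082, and with library weights -0.052 and -0.13, so the order of the members and all genes turned. After quantile normalization that all-gene median was -0.0019, with 2049 genes higher and 2024 lower in place of 1157 and 2497.

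The alcohol diet with UA was then set against the control diet. Here 9 members were lower (Stat2, Irf9, Irf1, Dhx58, Ifit2, Oas1a, Bst2, B2m and H2-K1) and Tapbp was higher, against 32.1% and 10.5% of all tested genes. The members' share was 23.7% lower and 2.63% higher. Their median difference was -0.35, against -0.16 over all tested genes, but -0.14 against -0.12 without Ctrl 1, -0.22 against -0.14 without Alc UA 5 and -0.054 against -0.15 with library weights. After quantile normalization 4 members were higher and 5 lower, and the split of all genes moved from 1152 higher and 3521 lower to 2420 and 2430. Leaving out 1 mouse moved the count of 9 to 3 (Ctrl 1) or 4 (Alc UA 5). This comparison uses the same Ctrl mice as the first, so calls made in both are not independent of each other.

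The effect of adding UA is addressed by Alc UA against Alc. In this comparison 0 of the 38 members passed the threshold in limma, where 0.00912% of all tested genes were higher and 0% lower. At an unadjusted p under 0.05 there was 1 member, Stat2, or 2.63% of them, against 6.06% of all tested genes. Differences ran from -0.44 to 0.14, negative for 29 of the 38 members (21 to 35 over the alternatives), with a median of -0.11, against -0.05 over all tested genes. Those medians were -0.020 and -0.024 without Alc 4, -0.039 and -0.027 without Alc UA 5, -0.19 and -0.027 without Alc UA 1, and -0.017 and -0.032 with library weights. A p that misses the threshold does not show that the 2 alcohol groups were alike.

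**Figure D2:**
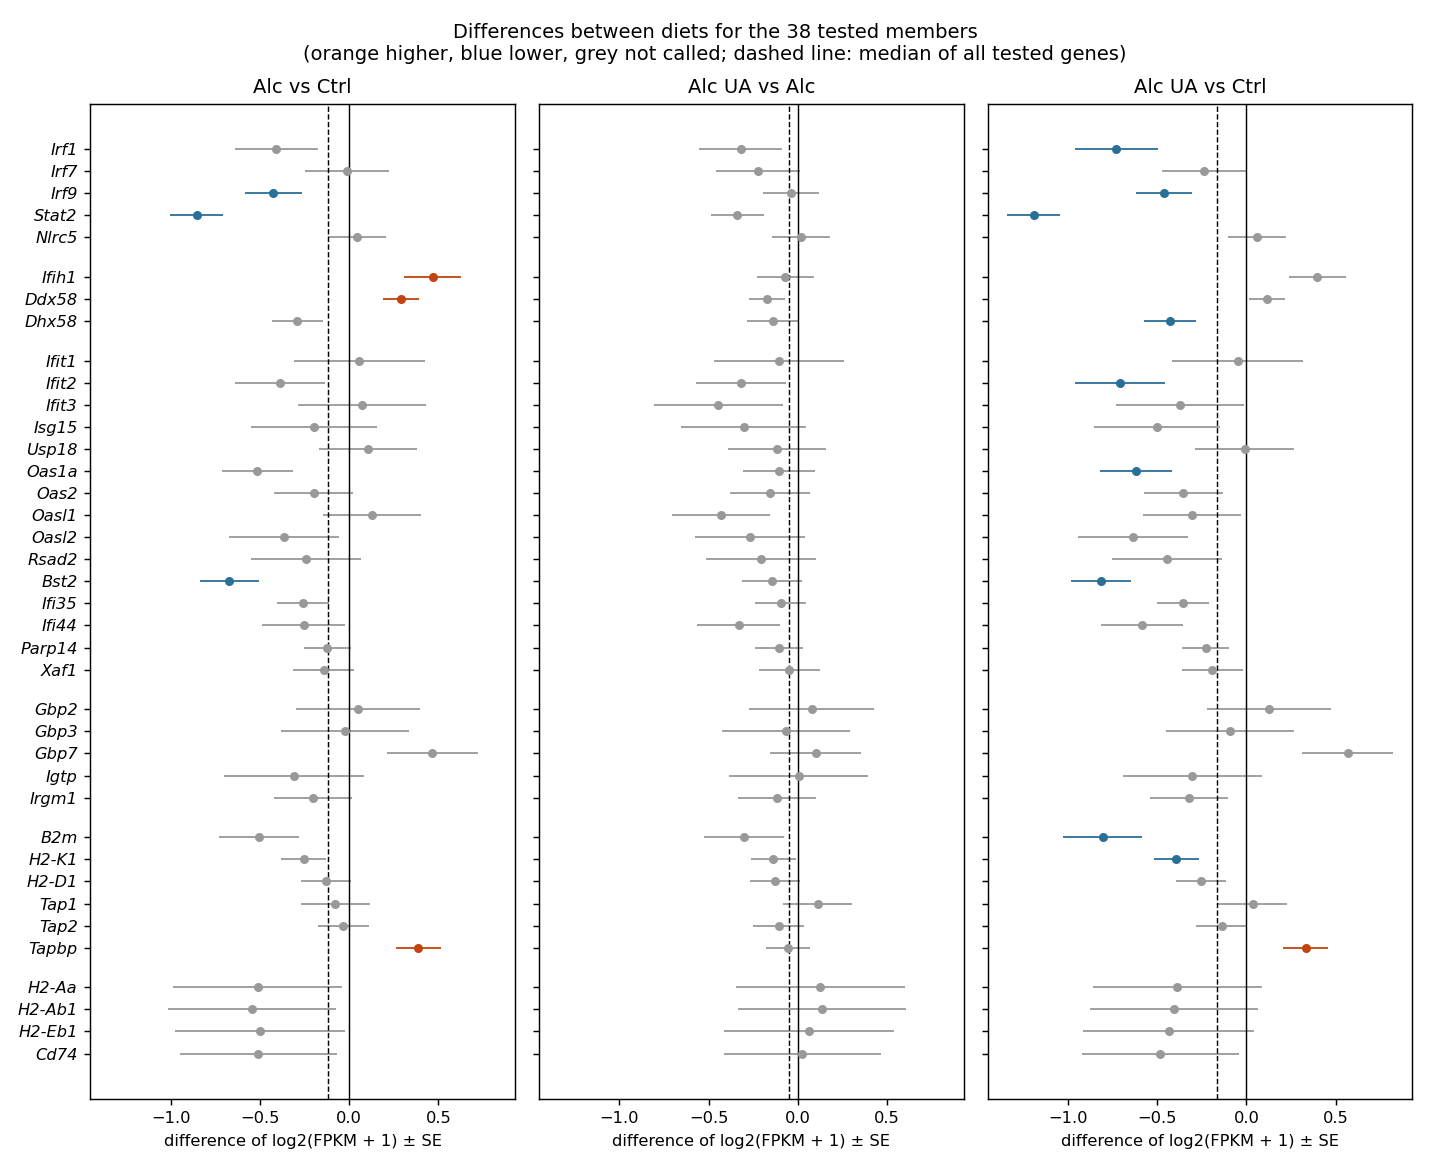
Difference of log2(FPKM + 1) between diets for each of the 38 tested members, by role, with its standard error as a bar, in the 3 comparisons. Orange marks members higher and blue members lower at an adjusted p under 0.05; dashed lines give the median of all 10959 tested genes, at -0.12, -0.05 and -0.16.

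Stat2, a signalling protein of the type I and type III interferon pathways, had the smallest p of the members. It stood at 34.6, 26.5, 28.9, 25.95 and 20.8 FPKM in Ctrl, 13.02, 13.1, 18.7, 18.1 and 11 in Alc and 12.1, 9.69, 11.98, 10.01 and 12.8 in Alc UA. Every Ctrl mouse was above every mouse of both alcohol groups, and the 2 alcohol groups overlapped. The means were 27.3 ± 4.99 FPKM in Ctrl, 14.8 ± 3.41 in Alc and 11.3 ± 1.37 in Alc UA (SD, n = 5 in each group, as for all means below). Against Ctrl it differed by -0.85 ± 0.15 (SE; adjusted p = 9.00e-04) in Alc and -1.19 ± 0.15 (SE; adjusted p = 6.23e-05) in Alc UA, which puts the mean Alc UA level at 0.414 of the Ctrl mean. Both calls held under 25 of 25 alternative settings. It was the only member in Alc without overlap with Ctrl, a state that 9.61% of all tested genes shared on the lower side and 6.18% on the higher. Between Alc UA and Alc its difference was -0.34 ± 0.15 (SE; adjusted p = 0.819).

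Irf9, the DNA-binding subunit of ISGF3, stood at 25.2, 19.1, 22.6, 19.4 and 24.97 FPKM in Ctrl, 16.99, 14.01, 20.1, 17.7 and 13.3 in Alc and 24.5, 14.8, 13.6, 15.8 and 12.6 in Alc UA. The groups overlapped: Alc 3 lay above Ctrl 2 and Ctrl 4, and Alc UA 1 was nearly as high as the highest Ctrl mouse. Irf9 differed from Ctrl by -0.42 ± 0.16 (SE; adjusted p = 0.0486) in Alc and -0.46 ± 0.16 (SE; adjusted p = 0.0280) in Alc UA. The call in Alc was lost without Ctrl 1, 3, 4 or 5, Alc 1, 2, 4 or 5 or Alc UA 2, 3 or 4, with no filter on low values, with median-of-ratios size factors, with no mean trend, after quantile normalization or without Ctrl 1 and Ctrl 5 together (adjusted p from 0.0506 to 0.203 there). That in Alc UA was lost without Ctrl 1 or 5 or Alc UA 2, 3 or 5, with median-of-ratios size factors, with library weights, after quantile normalization or without Ctrl 1 and Ctrl 5 together (adjusted p from 0.0513 to 0.191 there).

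Irf1, an interferon-gamma target that activates class I genes, stood at 25.6, 17.1, 23.4, 19.7 and 18.1 FPKM in Ctrl, 8.16, 16.1, 26.2, 16.03 and 14.6 in Alc and 14.5, 9.03, 17.7, 10.03 and 10.7 in Alc UA. The Alc mice spanned the whole range of the other groups, from the lowest value of the 15 (Alc 1) to the highest (Alc 3). The mean fell from 20.8 ± 3.61 FPKM in Ctrl to 12.4 ± 3.60 in Alc UA, a difference of -0.73 ± 0.23 (SE; adjusted p = 0.0205), with 4 of 5 Alc UA mice below every Ctrl mouse. This call was lost without Ctrl 1 or Alc UA 2, with median-of-ratios size factors or without Ctrl 1 and Ctrl 5 together (adjusted p from 0.0508 to 0.0594 there). The adjusted p for Alc against Ctrl was 0.186.

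The remaining factors did not pass the threshold in any comparison. Irf7, the factor that amplifies interferon production, stood at 40.5, 18.5, 26.5, 19.9 and 28.2 FPKM in Ctrl, 17.9, 19.7, 27.7, 36.99 and 29.6 in Alc and 32.5, 25.4, 16.4, 21.01 and 16.7 in Alc UA, with the groups overlapping throughout (adjusted p = 0.973 in Alc and 0.442 in Alc UA, both against Ctrl). Nlrc5, the transactivator of class I genes, stood at 6.80, 4.63, 6.23, 4.49 and 3.71 FPKM in Ctrl, 5.74, 4.97, 6.87, 4.79 and 4.21 in Alc and 6.02, 5.46, 4.19, 7.25 and 4.20 in Alc UA. All 15 Nlrc5 values lay within 3.71 to 7.25 FPKM, and the adjusted p was 0.853 in Alc and 0.789 in Alc UA. Ciita, the transactivator of class II genes, was barely measured, at 1.75, 0.360, 0.580, 0.460 and 0.210 FPKM in Ctrl, 0.240, 0.290, 0.340, 0.760 and 0.330 in Alc and 0.320, 0.820, 0.380, 0.310 and 0.230 in Alc UA. Only Ctrl 1 exceeded 1 FPKM, and Ciita was not tested.

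Of the 3 cytoplasmic RNA sensors, 2 were higher in Alc and the third was lower in Alc UA, both against Ctrl. In the same comparisons 10.6% of all tested genes were higher in Alc and 32.1% lower in Alc UA. Ifih1 (MDA5), which recognises long double-stranded RNA, stood at 6.14, 4.01, 5.34, 3.73 and 5.92 FPKM in Ctrl, 6.07, 6.40, 7.48, 9.49 and 7.05 in Alc and 9.89, 7.26, 6.57, 5.92 and 5.23 in Alc UA. In Alc, 4 of 5 mice were above all Ctrl mice, and Alc 1 was just below Ctrl 1. The means were 5.03 ± 1.101 FPKM in Ctrl, 7.30 ± 1.34 in Alc and 6.97 ± 1.80 in Alc UA, and the difference from Ctrl was 0.47 ± 0.16 (SE; adjusted p = 0.0339) in Alc and 0.40 ± 0.16 (SE; adjusted p = 0.0546) in Alc UA. The call in Alc was lost without Ctrl 2 or 4 or Alc 3, 4 or 5, with no filter on low values or with a replicate block (adjusted p from 0.0544 to 0.0908 there). In Alc UA, the difference passed the threshold under 8 of the 25 alternatives, among them both rescalings.

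Ddx58 (RIG-I), the sensor of short RNA with a triphosphate end, stood at 6.09, 4.18, 5.04, 4.54 and 5.38 FPKM in Ctrl, 5.91, 5.37, 7.19, 7.23 and 6.19 in Alc and 6.11, 5.51, 4.86, 5.83 and 5.29 in Alc UA. Its range was narrow, and 3 of 5 Alc mice lay above every Ctrl mouse. The mean rose from 5.05 ± 0.743 FPKM in Ctrl to 6.38 ± 0.815 in Alc, a difference of 0.29 ± 0.10 (SE; adjusted p = 0.0380). The call was lost without Ctrl 2, 3 or 4 or Alc 3, 4 or 5, with no filter on low values, with the 2 groups fitted alone or with a replicate block (adjusted p from 0.0502 to 0.103 there). In Alc UA, the mean was 5.52 ± 0.483 FPKM (adjusted p = 0.377 against Ctrl), and Ddx58 passed as higher there with either rescaling or library weights (0.26 to 0.29, adjusted p from 0.0236 to 0.0332 in limma).

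Dhx58 (LGP2), a relative of both that lacks their signalling domains, stood at 10.7, 6.98, 8.04, 8.29 and 8.31 FPKM in Ctrl, 5.76, 4.73, 7.68, 9.32 and 6.67 in Alc and 7.10, 6.25, 6.02, 5.84 and 4.81 in Alc UA. In Alc UA, 4 of 5 mice were below every Ctrl mouse, and Alc UA 1 was just above the lowest. The difference from Ctrl was -0.43 ± 0.14 (SE; adjusted p = 0.0262) in Alc UA and did not pass in Alc (adjusted p = 0.132). The Alc UA call was lost without Ctrl 1 or Alc UA 5, with median-of-ratios size factors, with library weights, after quantile normalization or without Ctrl 1 and Ctrl 5 together (adjusted p from 0.0703 to 0.117 there).

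Of the 15 tested antiviral effectors, 1 was lower in Alc and 3 in Alc UA, both against Ctrl, and none was higher. Among all tested genes, 22.8% were lower in Alc and 32.1% in Alc UA, and 10.6% and 10.5% were higher. The effectors were thus not called lower more often than the liver's genes at large. Bst2 (tetherin), which holds budding virions at the cell surface, had the highest FPKM among the effectors. It stood at 188, 148, 122, 152 and 118 FPKM in Ctrl, 66.2, 80.5, 97.5, 129.7 and 86.8 in Alc and 75.8, 79.2, 99.4, 85.6 and 68.7 in Alc UA. Alc 4 was the only Alc mouse that reached into the Ctrl range, and all Alc UA mice were below all Ctrl mice. The means were 146 ± 28.0 FPKM in Ctrl, 92.1 ± 23.8 in Alc and 81.7 ± 11.6 in Alc UA. The difference from Ctrl was -0.67 ± 0.17 (SE; adjusted p = 0.00739) in Alc and -0.82 ± 0.17 (SE; adjusted p = 0.00159) in Alc UA, and both calls held under 25 of 25 alternatives.

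Oas1a, a synthase of the 2-prime to 5-prime oligoadenylates that switch on RNase L, stood at 8.75, 3.79, 4.39, 5.43 and 5.48 FPKM in Ctrl, 3.29, 2.38, 3.71, 5.26 and 3.12 in Alc and 4.69, 3.38, 3.12, 2.89 and 2.07 in Alc UA. Ctrl 1 was the highest of the 15, and in Alc UA the groups overlapped through Alc UA 1 alone. In Alc UA Oas1a differed from Ctrl by -0.62 ± 0.20 (SE; adjusted p = 0.0213), with an adjusted p of 0.0578 in Alc (-0.51). In Alc it passed with the replicate block (adjusted p = 0.0416), with library weights and without Ctrl 2, Alc 4 or Alc UA 1 (adjusted p from 0.0243 to 0.0498 over these). The Alc UA call was lost without Ctrl 1 or Alc UA 5, with median-of-ratios size factors, with library weights, after quantile normalization or without Ctrl 1 and Ctrl 5 together (adjusted p from 0.0549 to 0.117 there).

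Ifit2, a member of the tetratricopeptide family that blocks translation of viral RNA, was expressed at low levels. It stood at 5.54, 1.77, 3.09, 3.14 and 2.6 FPKM in Ctrl, 1.31, 1.43, 1.43, 4.51 and 2.81 in Alc and 2.11, 2.07, 1.28, 1.07 and 1.11 in Alc UA. Ctrl 1 and Alc 4 were the only mice above 4 FPKM. Ifit2 differed from Ctrl by -0.71 ± 0.25 (SE; adjusted p = 0.0337) in Alc UA, and differences of such low genes are understated by the added pseudocount of 1 FPKM. The call was lost without Ctrl 1, 3 or 4 or Alc UA 3, 4 or 5, with no filter on low values, with median-of-ratios size factors, with library weights, after quantile normalization, with a replicate block or without Ctrl 1 and Ctrl 5 together (adjusted p from 0.0511 to 0.197 there).

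The most used reporters of interferon activity in this list did not pass the threshold. Ifit1, which binds RNA lacking the host cap methylation, stood at 7.92, 2.30, 4.80, 2.82 and 8.08 FPKM in Ctrl, 4.97, 1.64, 5.71, 9.28 and 5.64 in Alc and 8.71, 4.05, 4.59, 2.28 and 4.54 in Alc UA. Its groups overlapped throughout, with an adjusted p of 0.915 in Alc and 0.925 in Alc UA against Ctrl. Isg15, a ubiquitin-like modifier, stood at 40.3, 10.9, 17.9, 15.8 and 24.2 FPKM in Ctrl, 15, 10.4, 18.9, 35.9 and 13.8 in Alc and 24.4, 12.9, 17.8, 9.58 and 8.90 in Alc UA. Ctrl 1 and Alc 4 were far above the other mice of their groups, and the adjusted p was 0.687 in Alc and 0.262 in Alc UA.

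The other 10 tested effectors (Ifit3, Usp18, Oas2, Oasl1, Oasl2, Rsad2, Ifi35, Ifi44, Parp14 and Xaf1) passed in no comparison. Under alternatives, Ifi44 passed as lower in Alc UA against Ctrl with a pseudocount of 0.1 or without Ctrl 2, Alc 4 or Alc UA 1 (adjusted p from 0.0214 to 0.0460 in limma), and Ifi35 without Ctrl 5 or Alc UA 3 (0.0448 and 0.0466). Among them Xaf1 ranged from 15.5 to 34.4 FPKM over the 15 mice, Ifi35 from 12.5 to 27.6 and Ifit3 from 5.87 to 26.2, whereas Ifi44 stayed between 0.49 and 3.29 and Oas2 between 1.05 and 4.54. All 15 tested effectors had a negative difference in Alc UA against Ctrl, from -0.82 to -0.01, and also against Alc, from -0.44 to -0.05. Over the 25 alternatives both counts ranged from 11 to 15 of 15. The lowest for Alc UA against Alc came without Alc 4 and with library weights, and the lowest against Ctrl came from leaving out both Ctrl 1 and Ctrl 5 or from library weights. These counts are a description, since the effectors vary together from mouse to mouse.

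**Figure D3:**
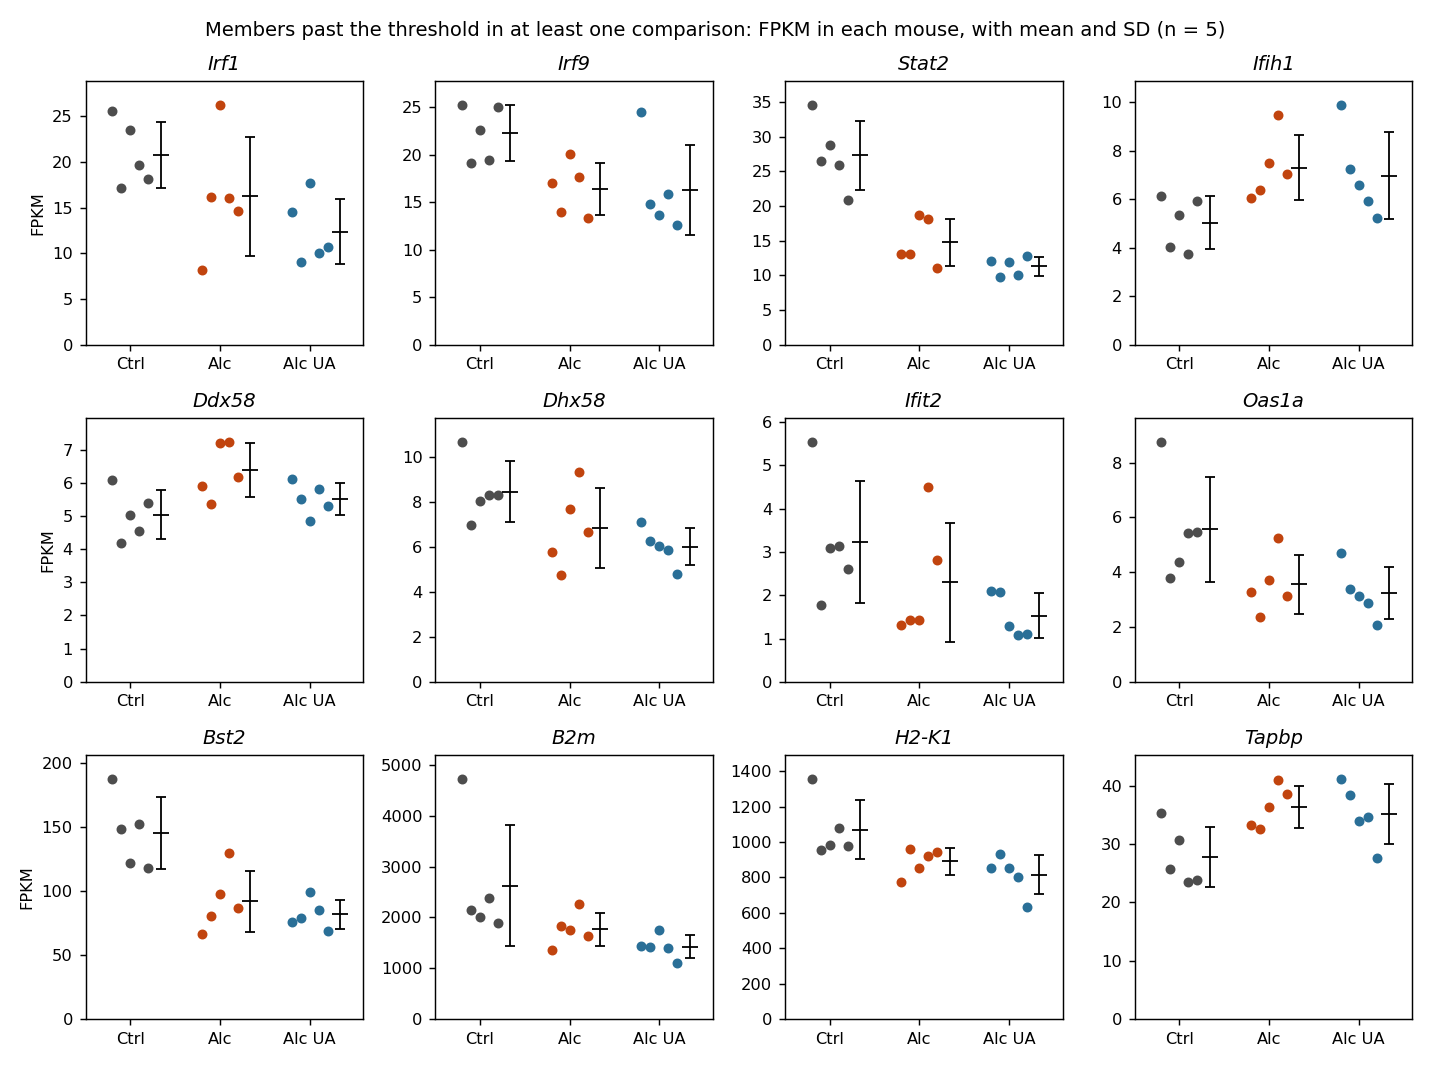
FPKM of the 12 members that passed the threshold in at least 1 comparison, in each mouse (points, 5 per group, left to right from mouse 1 to mouse 5), with the group mean and SD beside them and axes from 0. All Ctrl values of Stat2 lie above both alcohol groups, and the highest B2m value, 4722 FPKM, is Ctrl 1.

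None of the 5 interferon-inducible GTPases, which act in the defence against intracellular pathogens, passed the threshold in any comparison. Igtp (Irgm3) ranged from 10.8 to 70.4 FPKM and Irgm1 from 16.1 to 48.9, both with their maximum in Alc UA 1. The guanylate-binding proteins Gbp3, at 1.29 to 11.9 FPKM, and Gbp7, at 1.76 to 9.95 FPKM, also peaked in Alc UA 1, and Gbp2, at 1.08 to 6.67 FPKM, in Alc UA 2. Without Alc UA 1, Igtp (-0.76 ± 0.23, adjusted p = 0.0224) and Irgm1 (-0.56 ± 0.15, adjusted p = 0.0107) were lower in Alc UA than in Ctrl. Gbp7 passed as higher in Alc UA against Ctrl after either rescaling (0.76 ± 0.25, adjusted p = 0.0213 after quantile normalization). It also passed there with library weights (0.81 ± 0.25, adjusted p = 0.0137 in limma). These fits included Alc UA 1, at 9.95 FPKM, where the other Alc UA mice were at 2.69 to 4.09.

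B2m, the invariant light chain of MHC class I, had the highest FPKM of all members. It stood at 4722, 2148, 1999.7, 2375 and 1893 FPKM in Ctrl, 1349, 1823, 1744, 2258 and 1641 in Alc and 1446, 1422, 1755, 1392 and 1108 in Alc UA. Ctrl 1 was far above every other mouse, and all Alc UA mice were below all Ctrl mice. The means were 2627 ± 1185 FPKM in Ctrl, 1763 ± 330.0 in Alc and 1425 ± 229.5 in Alc UA. The difference from Ctrl was -0.81 ± 0.22 (SE; adjusted p = 0.00954) in Alc UA, a call that held under 25 of 25 alternatives, and it did not pass in Alc (adjusted p = 0.0911).

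H2-K1, a class I heavy chain, stood at 1354, 957, 981, 1077 and 979 FPKM in Ctrl, 776, 961, 853, 923 and 941 in Alc and 853, 930.2, 853, 803 and 633 in Alc UA. Every Alc UA mouse was below every Ctrl mouse, and Ctrl 1 was the highest of all. H2-K1 differed from Ctrl by -0.39 ± 0.13 (SE; adjusted p = 0.0225) in Alc UA, and the adjusted p in Alc was 0.133. The Alc UA call was lost without Ctrl 1 or Alc UA 5, with median-of-ratios size factors or without Ctrl 1 and Ctrl 5 together (adjusted p from 0.0577 to 0.178 there). With Stat2 and Bst2, B2m and H2-K1 made 4 members whose Alc UA and Ctrl values did not overlap, all lower, or 10.5% of the tested members against 14.7% of all tested genes on that side and 5.48% on the higher side.

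Tapbp (tapasin), which holds the empty class I heavy chain at the peptide transporter, was the only class I member that was higher. It stood at 35.3, 25.8, 30.7, 23.4 and 23.8 FPKM in Ctrl, 33.2, 32.6, 36.2, 41.02 and 38.6 in Alc and 41.1, 38.3, 33.99, 34.6 and 27.6 in Alc UA. In Alc, 3 of 5 mice were above all Ctrl mice, and Ctrl 1 lay within the Alc range. The means were 27.8 ± 5.12 FPKM in Ctrl, 36.3 ± 3.57 in Alc and 35.1 ± 5.09 in Alc UA, and the difference from Ctrl was 0.39 ± 0.13 (SE; adjusted p = 0.0278) in Alc and 0.33 ± 0.13 (SE; adjusted p = 0.0441) in Alc UA. The call in Alc was lost without Ctrl 2, 4 or 5 or Alc 4 or 5 (adjusted p from 0.0522 to 0.0729 there). That in Alc UA was lost without Ctrl 2, 4 or 5, Alc 2, 3 or 5 or Alc UA 1, 2, 3 or 4, with no filter on low values, with the 2 groups fitted alone or with a replicate block (adjusted p from 0.0508 to 0.113 there).

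The remaining class I genes passed in no comparison. The heavy chain H2-D1 ranged from 331 to 636 FPKM, and the ratio of H2-K1 to H2-D1 was 1.70 to 2.27 in the 15 mice. The transporter subunits Tap1 and Tap2, which bring peptides into the endoplasmic reticulum, ranged from 9.97 to 24.2 and from 10.8 to 18.6 FPKM.

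The 4 class II genes were the members that differed most between mice of one group. Cd74, the invariant chain that guards the class II groove, stood at 194, 47.6, 59.9, 68.3 and 23.2 FPKM in Ctrl, 30.3, 39.5, 35.9, 81.01 and 42.2 in Alc and 54.1, 80.01, 29.7, 46.03 and 27.2 in Alc UA. H2-Aa, the alpha chain of the A molecule, stood at 132, 27.2, 45.8, 38.8 and 13.9 FPKM in Ctrl, 15.9, 25.8, 22.9, 56.1 and 27.5 in Alc and 38.1, 57.2, 21.2, 27.3 and 17.9 in Alc UA. All 4 had the same highest mouse in each group (Ctrl 1, Alc 4 and Alc UA 2) and the same lowest (Ctrl 5, Alc 1 and Alc UA 5). The ratio of Cd74 to H2-Aa FPKM stayed between 1.31 and 1.91 over the 15 mice, and that of H2-Aa to H2-Ab1 between 1.21 and 1.41. The residual standard deviation of log2(FPKM + 1) was 0.79 to 0.86 for these 4 genes, against a median of 0.20 over all tested genes. Of the 38 tested members, 36 were above that median.

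None of the 4 class II genes passed the threshold. The median difference was -0.51 in Alc and -0.42 in Alc UA, both against Ctrl, with adjusted p from 0.386 to 0.438 and from 0.391 to 0.532. Without Ctrl 1, the highest Ctrl mouse, these medians were -0.09 and 0.0038, without Ctrl 5, the lowest, they were -0.86 and -0.77, and without both they were -0.42 and -0.32, with all 4 genes negative. In Alc UA the median was also -0.22 without Alc UA 5, -0.68 without Alc UA 2 and -0.054 with library weights. At this spread, a difference of that size was not detectable with 5 mice a group.

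**Figure D4:**
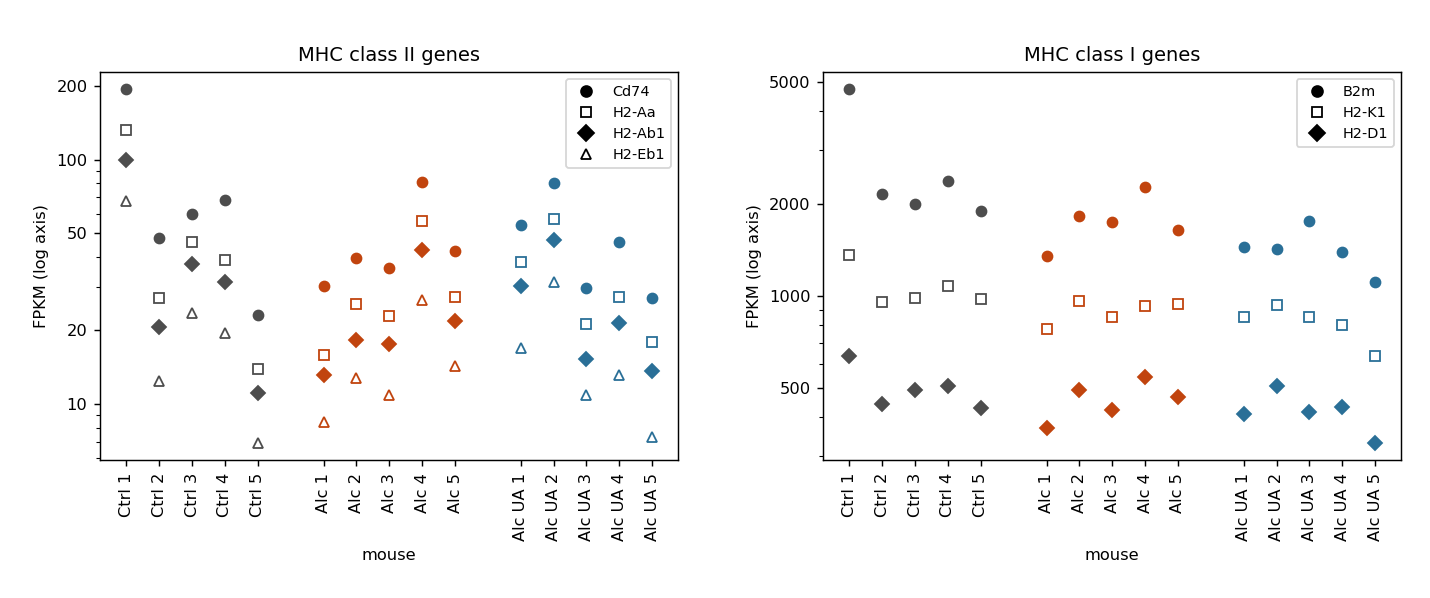
FPKM of the 4 MHC class II genes (left) and of the class I genes B2m, H2-K1 and H2-D1 (right) in each of the 15 mice, on logarithmic axes. The class II genes keep nearly constant spacing within a mouse while shifting together between mice; Ctrl 1 is the highest mouse for all 7 genes.

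The genes around the members were followed with lists of 138 interferon and antigen presentation genes, of which 113 were tested. Against Ctrl, 5 of the 113 were higher (4.42%) and 20 lower (17.7%) in Alc. In Alc UA 7 were higher (6.19%) and 36 lower (31.9%). Of all tested genes, 10.6% were higher and 22.8% lower in Alc, and 10.5% and 32.1% in Alc UA. The lower share in Alc UA was thus nearly that of all tested genes, and the other shares were smaller than theirs. Between Alc UA and Alc, 0 of the 113 passed in either direction. The median difference of the 113 was -0.16 in Alc and -0.25 in Alc UA, beside -0.12 and -0.16 over all tested genes.

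Transcripts of the interferons themselves were hardly measured: 3 of 10 listed genes had a row and none was tested. Ifng, encoding interferon gamma, stood at 0.590, 0.190, 0.150, 0.620 and 0 FPKM in Ctrl, 0.0400, 0.05, 0.05, 0.05 and 0.180 in Alc and 0.0400, 0, 0, 0.0400 and 0 in Alc UA, with every value under 1 FPKM. For the receptors and their kinases and STATs, 3 of 18 tested genes were lower and 0 higher in Alc, and 5 lower and 1 higher in Alc UA. The lower shares were 16.7% and 27.8%, beside 22.8% and 32.1% of all tested genes. The higher shares were 0% and 5.56%, beside 10.6% and 10.5%. Ifnar1 ranged over 6.54 to 9.61 FPKM and Ifnar2 over 55.5 to 78.2 FPKM. Ifnar2 was lower in Alc UA (-0.23 ± 0.08 SE, adjusted p = 0.0297), a call lost without Ctrl 1 or 2 or Alc UA 1, 2, 3 or 5, with median-of-ratios size factors, after quantile normalization or without Ctrl 1 and Ctrl 5 together (adjusted p from 0.0501 to 0.712 there). In Alc, no threshold was passed by Ifnar1 (adjusted p = 0.805), Ifnar2 (0.173), the gamma receptor Ifngr1 (0.262) or the kinase Jak1 (0.147).

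Ptpn2, a phosphatase that dampens JAK and STAT signalling, stood at 13.8, 10.2, 9.91, 10.5 and 9.59 FPKM in Ctrl, 7.73, 7.64, 7.75, 9.40 and 5.92 in Alc and 7.08, 7.75, 6.95, 7.14 and 6.20 in Alc UA. Every Ctrl mouse was above every mouse of both alcohol groups, with differences of -0.44 ± 0.11 (SE; adjusted p = 0.00810) in Alc and -0.55 ± 0.11 (SE; adjusted p = 0.00157) in Alc UA.

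Among 53 tested further interferon-stimulated genes, 1 was higher and 10 lower in Alc, and 1 higher and 20 lower in Alc UA, both against Ctrl. The lower shares, 18.9% and 37.7%, lay near the 22.8% and 32.1% of all tested genes. The higher share, 1.89% in both groups, was below the 10.6% and 10.5% of all tested genes. Tor3a, an interferon-responsive ATPase of the endoplasmic reticulum, stood at 11.1, 13.4, 9.01, 12.4 and 6.76 FPKM in Ctrl, 2.44, 2.22, 1.71, 4.19 and 2.11 in Alc and 1.82, 3.04, 3.42, 1.98 and 2.24 in Alc UA. No alcohol-fed mouse reached the lowest Ctrl value, and the mean Alc level was 0.241 of the Ctrl mean (-1.71 ± 0.19 SE, adjusted p = 3.85e-05; in Alc UA -1.71 ± 0.19 SE, adjusted p = 3.07e-05). Isg20, an RNA exonuclease, stood at 5.23, 4, 4.40, 6.63 and 3.82 FPKM in Ctrl, 1.92, 1.71, 1.71, 2.79 and 1.92 in Alc and 1.46, 2.09, 1.97, 2.59 and 0.950 in Alc UA. Its groups were likewise apart (-0.94 ± 0.16 SE, adjusted p = 8.98e-04 in Alc and -1.06 ± 0.16 SE, adjusted p = 2.64e-04 in Alc UA).

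Adar, which edits adenosine to inosine in double-stranded RNA, fell from 7.71 ± 0.931 FPKM in Ctrl to 5.18 ± 0.788 in Alc and 4.68 ± 0.449 in Alc UA. The differences were -0.50 ± 0.10 (SE; adjusted p = 0.00240) and -0.61 ± 0.10 (SE; adjusted p = 3.96e-04), and neither alcohol group overlapped Ctrl. Helz2, a helicase and nuclear receptor coactivator, was at 17.8 to 19.5 FPKM in Ctrl, 10.2 to 14.5 in Alc and 8.26 to 15.1 in Alc UA (-0.60 ± 0.13 SE, adjusted p = 0.00348 and -0.68 ± 0.13 SE, adjusted p = 0.00105). Also lower in both alcohol groups were Ifi27 (-0.75 ± 0.18 SE, adjusted p = 0.00566 and -1.004 ± 0.18 SE, adjusted p = 6.47e-04), the nuclear DNA-binding protein Ifi203 (-0.99 ± 0.21 SE, adjusted p = 0.00313 and -1.18 ± 0.21 SE, adjusted p = 6.74e-04) and the nuclear body protein Sp100 (-0.95 ± 0.26 SE, adjusted p = 0.0117 and -1.25 ± 0.26 SE, adjusted p = 0.00172). In Alc these 3 overlapped Ctrl, and in Alc UA they did not.

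On the antigen presentation side, Erap1, the aminopeptidase that trims peptides for class I, was higher in both alcohol groups. It stood at 15.03, 12.1, 12.7, 9.23 and 13.9 FPKM in Ctrl, 20.8, 18.8, 19.7, 20.1 and 22.8 in Alc and 22.9, 23.4, 15.2, 20.2 and 19.8 in Alc UA, with every alcohol-fed mouse above every Ctrl mouse. The difference from Ctrl was 0.67 ± 0.13 (SE; adjusted p = 0.00146) in Alc and 0.65 ± 0.13 (SE; adjusted p = 0.00115) in Alc UA. Across the 21 tested genes of class I, the immunoproteasome and peptide loading, 3 were higher and 3 lower in Alc, and 3 higher and 7 lower in Alc UA. The higher share was 14.3% in both groups, beside 10.6% and 10.5% of all tested genes. The lower shares were 14.3% and 33.3%, beside 22.8% and 32.1%. Rfxank, a subunit of the RFX complex that binds class I and class II promoters, stood at 11.96, 8.93, 10.8, 11.8 and 6.94 FPKM in Ctrl, 4.5, 4.41, 5.21, 4.15 and 4.68 in Alc and 3.48, 4.30, 4.32, 3.46 and 3.29 in Alc UA. The groups were apart, with differences of -0.97 ± 0.13 (SE; adjusted p = 1.13e-04) in Alc and -1.20 ± 0.13 (SE; adjusted p = 1.72e-05) in Alc UA. Of the 11 tested class II genes in this list, Rfxank included, 3 were lower and 0 higher in each alcohol group. That lower share, 27.3%, lay near the 22.8% of all tested genes in Alc and 32.1% in Alc UA. The higher share was 0% in both groups, beside 10.6% and 10.5% of all tested genes. The calls of Rfxank, Tor3a, Isg20, Adar, Ifi27, Ifi203, Erap1, Helz2, Ptpn2 and Sp100 against Ctrl held under 25 of 25 alternatives.

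The members are transcribed in several liver cell types, and in whole liver a smaller number of cells of one type and less RNA per cell cannot be told apart. Counts of markers are all against Ctrl. Beside them, 22.8% of all tested genes were lower in Alc and 32.1% in Alc UA, and 10.6% and 10.5% were higher. Of the sinusoidal endothelial markers, 7 of 8 tested genes were lower in Alc and 8 of 8 in Alc UA, and the summed FPKM was 137 to 399 in Ctrl, 57.5 to 134 in Alc and 60.2 to 81.2 in Alc UA. Markers of B and plasma cells were lower in 4 of 4 tested genes of 8 in both groups, with sums of 7.73 to 23.2, 2.18 to 7.27 and 3.10 to 14.8 FPKM. The 14.8 was Alc UA 3 alone, and the other Alc UA mice were at 3.10 to 4.88. Markers of T and NK cells were lower in 3 and 2 of 3 tested genes of 12, with sums of 5.30 to 43.6, 3.18 to 10.7 and 3.82 to 10.7 FPKM. Dendritic cell markers were lower in 2 and 3 of 3 tested genes of 8, with sums of 152 to 268, 129 to 200.3 and 117 to 161 FPKM. Nearly all of that sum was Cst3, a gene of many cell types, and the other dendritic cell markers summed to 4.75 to 17.99, 3.63 to 6.77 and 3.35 to 7.57 FPKM. No listed marker was at 0 in every library. The part of these cells in the lower values of Stat2, Bst2, B2m and the other members was not tested.

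Kupffer cell markers, by contrast, were higher in 0 of 10 genes in Alc and 1 of 10 in Alc UA and lower in none, with sums of 62.2 to 419 FPKM in Ctrl, 172 to 288 in Alc and 196 to 653 in Alc UA. The 653 was Alc UA 3 alone, and the next Alc UA mouse was at 242. The gene called was Cd5l, at 210 FPKM in Alc UA 3, 45.6 to 59.4 in the other Alc UA mice and 10.3 to 73.7 in Ctrl. All 10 Kupffer markers had a positive difference in both groups, with a median of 0.35 in Alc and 0.52 in Alc UA. For monocytes 0 of 4 tested markers of 5 passed (sums of 25.6 to 180.3, 43.1 to 95.0 and 46.7 to 111 FPKM). Most of that sum was Lyz2, and the other monocyte markers summed to 6.96 to 32.7, 7.47 to 19.6 and 8.79 to 19.3 FPKM. The difference was negative for 3 of the 4 tested markers in both groups and positive for Lyz2. For neutrophils 1 of 3 tested markers of 6 was lower in Alc and 0 in Alc UA (6.15 to 48.4, 6.39 to 12.3 and 8.08 to 21.0 FPKM). Hepatocyte markers were lower in 2 of 7 genes in both groups, near the share of all tested genes. Their sums were 33520 to 54812, 43224 to 58194 and 27719 to 46944 FPKM.

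The sums were at an extreme in Ctrl 1 and Ctrl 5. In Ctrl 1, where 35 members were highest, the summed Kupffer markers were 419 FPKM, the monocyte markers 180.3 and the T and NK markers 43.6, each the highest of Ctrl, and the hepatocyte markers were 33520, the lowest. In Ctrl 5, where all 4 class II genes were lowest, the same 3 sums were 62.2, 25.6 and 5.30 FPKM, each the lowest of Ctrl, while Ctrl 5 was lowest for 13 of the 39 members and highest for 3. The endothelial, dendritic, B and plasma and neutrophil sums were also the highest of Ctrl in Ctrl 1 (399, 268, 23.2 and 48.4 FPKM). In Ctrl 5 they too were the lowest (137, 152, 7.73 and 6.15 FPKM). Ctrl 2 was lowest for 22 members, with a Kupffer sum of 173 FPKM. Whether these cells account for the class II values was not tested.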

How the data were processed

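RNA of 15 mouse livers was sequenced after phenol-chloroform extraction, and the labels' protocols name an MGISEQ library procedure. The deposited values are FPKM, in 1 table of 18510 genes made by the authors. The submitters' processing notes list RSEM 1.2.8, StringTie, DESeq, Bowtie2 2.2.5 and HISAT2 2.1.0, with no role or order. The sources used here do not give the genome build, annotation or strand setting. FPKM is relative to each library's total, so a large change in a few genes shifts all others, and read counts and depth are unknown.

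The 10959 genes that reached 1 FPKM in 5 or more of the 15 libraries were tested with limma 3.58.1 in R 4.3.3 on log2(FPKM + 1), in 1 model of the 3 groups with a mean trend, and p-values were adjusted by the Benjamini-Hochberg method over all tested genes within each comparison (threshold 0.05). The fit was tested on simulated data. Differences on this scale understate the change of low genes. Python 3.11.15 and matplotlib 3.10.9 were used for summaries and plots. The 2 comparisons with Ctrl share its mice. The labels number the mice 1 to 5 in each group, but same-numbered mice did not deviate together. The labels do not say whether mice were housed or processed apart.

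Values for every mouse are given for members that passed the threshold in at least 1 comparison and for Ifit1, Isg15, Irf7, Stat2, B2m, H2-K1, H2-Aa, Cd74, Ciita and Nlrc5. Of the surrounding genes, the 10 called with the smallest p are described, with Ifng, Ifnar1, Ifnar2, Ifngr1 and Jak1; 1 further gene of that rule is not reported here. The members and lists were chosen with earlier results of these data known. Alternatives were a pseudocount of 0.1, no filter, a mean of at least 1 FPKM, quantile normalization, median-of-ratios size factors, no mean trend, 2 groups alone, library weights, a replicate block, leaving out Ctrl 1 and Ctrl 5 together, and leaving out each mouse.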

Additional observations from a re-analysis of the deposited data

Results flagged for a closer look

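Within each group of 5, a mouse far from the others was sought for each of the 38 tested members, by whether the gap to its nearest neighbour exceeded 0.71 of the group's range on the log2(FPKM + 1) scale. Of 114 groups, 4 held such a mouse, where chance alone gives about 1 in 20. B2m was 4722 FPKM in Ctrl 1 and at most 2375 in the other Ctrl mice. Xaf1, a proapoptotic interferon-stimulated gene, was 34.4 FPKM in Ctrl 1, and Igtp was 32.7 FPKM in the same mouse, with the other Ctrl mice at no more than 22.9 and 23.1. Rsad2 (viperin), an antiviral enzyme, was 1.87 FPKM in Alc UA 4, below the other Alc UA mice, the lowest of which was at 3.42. On this scale 3 of the 4 lie in Ctrl 1. On untransformed FPKM the same limit was exceeded 16 times, 7 in Ctrl 1, 6 in Alc UA 1 and 3 in Alc 4. Those of Alc UA 1 were Igtp, Gbp7, Gbp3, Irgm1, Tap1 and Irf9. The call of B2m in Alc UA against Ctrl held without Ctrl 1.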

How the results depend on the processing

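The 25 alternative settings changed the counts of members more than the strongest calls: of the 16 member calls, 5 (Stat2 and Bst2 in both comparisons with Ctrl, and B2m in Alc UA) held under all 25. Leaving out each mouse in turn gave 0 to 3 members higher and 2 to 4 lower in Alc against Ctrl, 0 to 2 higher and 3 to 12 lower in Alc UA against Ctrl, and 0 in either direction between Alc UA and Alc. The calls over all genes then ranged from 2571 to 4515, from 3835 to 5374 and from 1 to 5. In Alc against Ctrl the 3 members higher fell to 0 without Ctrl 2, Ctrl 4, Alc 4 or Alc 5, and to 1 without Alc 3. The 1 member higher in Alc UA against Ctrl became 0 without Ctrl 2, Ctrl 4, Alc 2, Alc 3, Alc 5 or Alc UA 1 to 4, and 2 without Ctrl 1, Alc 4 or Alc UA 5.

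In Alc against Ctrl, members higher numbered 1 with no filter, and with library weights 5 members were lower and 5870 of all genes were called, against 3654. In Alc UA against Ctrl, members higher numbered 4 with library weights or either rescaling (quantile normalization, median-of-ratios), 2 without Ctrl 1 and 5 together, and 0 with no filter or 2 groups alone. Members lower numbered 5 after quantile normalization or with library weights, and 3 with median-of-ratios size factors or without Ctrl 1 and 5. With median-of-ratios size factors, 2012 genes were higher and 1943 lower in Alc, and 2425 and 2362 in Alc UA, both against Ctrl. The 1 gene called between Alc UA and Alc became 0 with 2 groups alone, 3 with library weights and 2 without Ctrl 1 and 5. In Alc against Ctrl, B2m and Gbp7 passed only with library weights, Dhx58 only without Alc 4 and Irf1 only without Alc 3. The cause of these shifts was not tested.

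Same-numbered mice showed no shared deviation: residuals of the 15 same-numbered pairs correlated at -0.30 to 0.29 (median -0.04). Those of the 60 pairs with other numbers correlated at -0.35 to 0.34 (median -0.0079). These values cannot show how the mice were housed or processed. With the replicate number as a block, 1 member was higher and 4 lower in Alc, 0 and 8 in Alc UA against Ctrl, and 0 genes of all passed between Alc UA and Alc.

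Members that did not pass could change sign: over 2450 combinations of such a member, comparison and setting, 149 (6.08%) had the opposite sign. Ifit1 in Alc UA against Ctrl was 0.14 and 0.11 under the rescalings (quantile, median-of-ratios), 0.44 with library weights and 0.39 without Ctrl 1 and 5 together, and Irf7 in Alc was 0.068, 0.12, 0.20 and 0.24. In the last 2 settings Isg15 in Alc was 0.051 and 0.22, and Irf7 in Alc UA 0.084 and 0.020. Leaving out 1 mouse gave, all against Ctrl, -0.14 to 0.35 for Ifit1 in Alc and -0.26 to 0.14 in Alc UA, -0.45 to 0.050 for Isg15 in Alc, -0.14 to 0.15 for Irf7 in Alc, -0.75 to 0.044 for H2-Aa in Alc UA, -0.048 to 0.13 for Nlrc5 in Alc and -0.036 to 0.15 in Alc UA, and -0.017 to 0.10 for Ifnar1 in Alc.

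With FPKM alone, the counting error of low members such as Ifit2, Oas1a and the Gbp genes is unknown, and 5 mice a group limit the precision for the class II genes.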
